A study of Mus musculus with 2 samples.

Results

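The Clec4 genes and their relatives Clec12a and Clec9a encode C-type lectin receptors of myeloid cells, and they were chosen by gene symbol. Of the 10 symbols in the set, 9 were analysed among the 32285 genes of the matrix, namely Clec4a1, Clec4a2, Clec4a3, Clec4b1, Clec4d, Clec4e, Clec4n, Clec9a and Clec12a. Clec7a was not analysed here. Cells came from the dorsal skin of male wild-type (WT) mice that received no treatment, with 1 library pooled from 2 mice at 9 weeks of age and 1 pooled from 2 mice at 108 weeks. The skin was digested with enzymes, a sort took the F4/80+ cells with high MHC class II, and transcripts were counted in droplets from their 3′ ends. The labels give no strain.

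C-type lectin receptors of this kind recognise sugars and lipids of microbes, crystals and the remains of dead cells. Clec4d (also called MCL), Clec4e (Mincle), Clec4n (Dectin-2) and Clec4b1 (DCAR) work with the Fc receptor gamma chain, encoded by Fcer1g, whose phosphorylated tail recruits the kinase Syk and so activates the Card9, Bcl10 and Malt1 complex. Clec4a2 (DCIR1) and Clec12a (MICL) carry inhibitory tails that recruit the phosphatases encoded by Ptpn6 and Ptpn11, and Clec4a1 and Clec4a3 are DCIR relatives. Clec9a (DNGR-1) binds the actin of dead cells and is known as a receptor of type 1 conventional dendritic cells.

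Both libraries were deposited in 1 matrix of 5257 cell barcodes and 56204601 UMIs, a UMI being a molecular tag that counts 1 captured transcript. A barcode suffix separates the libraries, but no label ties a suffix to an age, so the ages were pooled and the suffixes are given as library 1 and library 2, of unknown age. The filter on cells kept 3797 barcodes, 2396 of library 1 and 1401 of library 2, with a median of 10870 UMIs. The libraries stood apart in their make-up, since phagocyte clusters held 66.6% of the cells of library 1 and 31.7% of those of library 2. The libraries shared 1 barcode among all cells and 0 among the kept cells. With 1 library per age and cells that are not replicates, no p-value was computed. Intervals are exact 95% intervals that cover counting error only, and the values of the 2 libraries are given side by side as the only measure of spread.

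The 2039 phagocytes fell into 17 clusters, which were named from marker lists while the lectins themselves were kept out of the clustering. Monocyte-like cells (558 cells, clusters 0, 3 and 10) had raised Ly6c2, Plac8 and Thbs1 in each cluster. Clusters 0 and 3 also had 6 of 9 markers of lipid-associated macrophages raised, with Spp1 at 902 CPM (UMIs per 1e+06 UMIs of the group) and Gpnmb at 246 CPM in cluster 0, and cluster 3 had 5 of 10 resident macrophage markers raised. Cluster 3 held 4186757 of the 8192651 UMIs of the monocyte-like cells. Its median Scrublet score for doublets (barcodes with more than 1 cell) was 0.0586, the highest of the 17 clusters, against 0.0238 in cluster 0. The part of doublets in its mixed markers was not tested. Cluster 10 had far less Ly6c2 and Plac8, at 81.8 and 170 CPM, than cluster 0, at 1436 and 1151 CPM. Dendritic type 2-like cluster 9 had as much, at 82.0 and 214 CPM, and the type 2 list was the next best for cluster 10. Resident macrophage-like cells (545 cells, clusters 1, 4, 8 and 16) had raised Folr2, Cd163 and Gas6 in each cluster, and inflammatory macrophage-like cells (244 cells, clusters 2 and 11) had raised Il1a, Tnf and Ccl3. Cluster 2, which holds 201 of those 244 cells, had 9 of 10 inflammatory markers raised, but of its 10 leading genes only Il1a was on that list, and the adipose genes Cfd, Car3 and Fabp4 were among the others. Summed over the inflammatory list, cluster 2 had 14461 CPM and cluster 11 had 61165.5 CPM. Resident cluster 8, with 5 of the 10 inflammatory markers raised, had 10719 CPM. The remaining named phagocytes were 427 conventional dendritic type 2-like and 21 mature dendritic-like cells, the second group marked by Ccr7. None of the 10 leading genes of type 2-like cluster 6 (157 cells) was on the type 2 list, whereas Ccr7 of the mature dendritic and Cd207 of the Langerhans list were among them. Clusters that met no name were an Fn1-, Dcstamp- and Cd226-high cluster of 160 cells (cluster 5), a cluster of 34 cells led by Igkc, Cd207 and Cd79a (cluster 12), a Top2a-positive cluster of 33 cells and one of 17 cells with muscle genes. The labels call all the sorted cells macrophages. Csf1r, the receptor for the macrophage growth factor, nevertheless ranged from 30.2 CPM in cluster 12 to 1228 CPM in cluster 11. Another 1758 cells belonged to fibroblast-like, endothelial-like and other skin clusters.

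All 9 genes lie on mouse chromosome 6 (GRCm38, GENCODE vM21) as protein-coding genes. The 7 Clec4 genes form a block of 368 kb between positions 122921848 and 123289870 that holds 9 protein-coding genes. From the lower coordinate up, the block begins with Clec4a1, Clec4a3, Clec4b1 and Clec4a2 and ends with Clec4n, Clec4d and Clec4e. Clec4e (123281789 to 123289870) is on the minus strand and the other 6 are on the plus strand. Clec4d (123262111 to 123275265) and Clec4e point toward each other, with 6523 bases between their ends. Clec12a (129342691 to 129365303) and Clec9a (129408862 to 129424763) lie apart from the block, at a distance of 43558 bases from one another.

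Clec4d and Clec4e are shown with their promoters because they are neighbours whose levels differed across the macrophage clusters, as described further on. RefSeq promoter sequence (GRCm38.p6) was matched for 8 of the 9 genes. The lines below give the 250 bases before the start of transcription, 5′ to 3′ on the strand of the gene, and capitals mark matches to the motifs searched.
Clec4d, chr6:123261857-123262106, plus strand: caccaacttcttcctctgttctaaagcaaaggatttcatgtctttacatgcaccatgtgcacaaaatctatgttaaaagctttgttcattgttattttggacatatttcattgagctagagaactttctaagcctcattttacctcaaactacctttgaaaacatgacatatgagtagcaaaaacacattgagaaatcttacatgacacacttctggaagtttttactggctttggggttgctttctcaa
Clec4e, chr6:123289872-123290121, minus strand: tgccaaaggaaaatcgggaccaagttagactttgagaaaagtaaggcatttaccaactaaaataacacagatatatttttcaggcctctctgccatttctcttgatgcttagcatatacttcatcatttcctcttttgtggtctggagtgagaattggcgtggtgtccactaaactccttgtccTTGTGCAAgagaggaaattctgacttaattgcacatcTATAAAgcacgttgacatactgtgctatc

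The motifs were searched on both strands. The letters for PU.1 were GAGGAAGT and those for ETS were AGGAAGT, which lies within the PU.1 motif. The AP-1 motif was TGANTCA, the C/EBP motif TTGCNNAA and the TATA motif TATAAA, and the NF-kB consensus and a composite of IRF with ETS were searched too. The Clec4e window held a C/EBP match that begins 66 bases before the start and a TATA match that begins 29 bases before it. The Clec4d window held none of the motifs. Of 32851 promoter windows of the same length, 9.56% held the C/EBP motif and 12.4% the TATA motif. Among the other members, Clec12a held a C/EBP match at 140 bases and an AP-1 match at 213 bases before the RefSeq start, Clec4a1 held the composite, Clec4a2 and Clec9a held a TATA match at 161 and 226 bases, and no window of the 8 genes held the PU.1, ETS or NF-kB motif.

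Every lectin was found almost entirely in phagocytes. The 4 highest sums over all kept cells were 5894 UMIs for Clec4a1, 4925 for Clec4a3, 4723 for Clec4a2 and 4575 for Clec4e, and the lowest was 79 for Clec9a. Phagocytes held between 95.9% and 98.7% of each gene's UMIs. In named phagocytes against other skin cells, 9 of 9 lectins were 2-fold or more higher, where 12.8% of all 15085 genes tested were, and none was lower, where 38.1% were. Their log2 ratios ranged from 4.58 for Clec4b1 to 4.91 for Clec4d, with a median of 4.83 against -0.53 over all genes. Clec4a1, for instance, stood at 248 CPM in named phagocytes and 8.25 CPM in other skin cells. Clec9a rested on 25 UMIs in named phagocytes against 1 in other cells, and its log2 ratio of 4.88 had an interval from 2.27 to 10.2. The sort itself selects phagocytes, and 32 mast cell-like cells had a summed lectin level of 885 CPM against 16.8 CPM in fibroblast-like cells. That level was 1169 CPM in library 1 and 547 CPM in library 2, and it came from 4 of the 32 cells (12.5%), each of which held 4 or more lectins, while the others held none. The part of doublets or free RNA in that value was not tested.

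**Figure D1:**
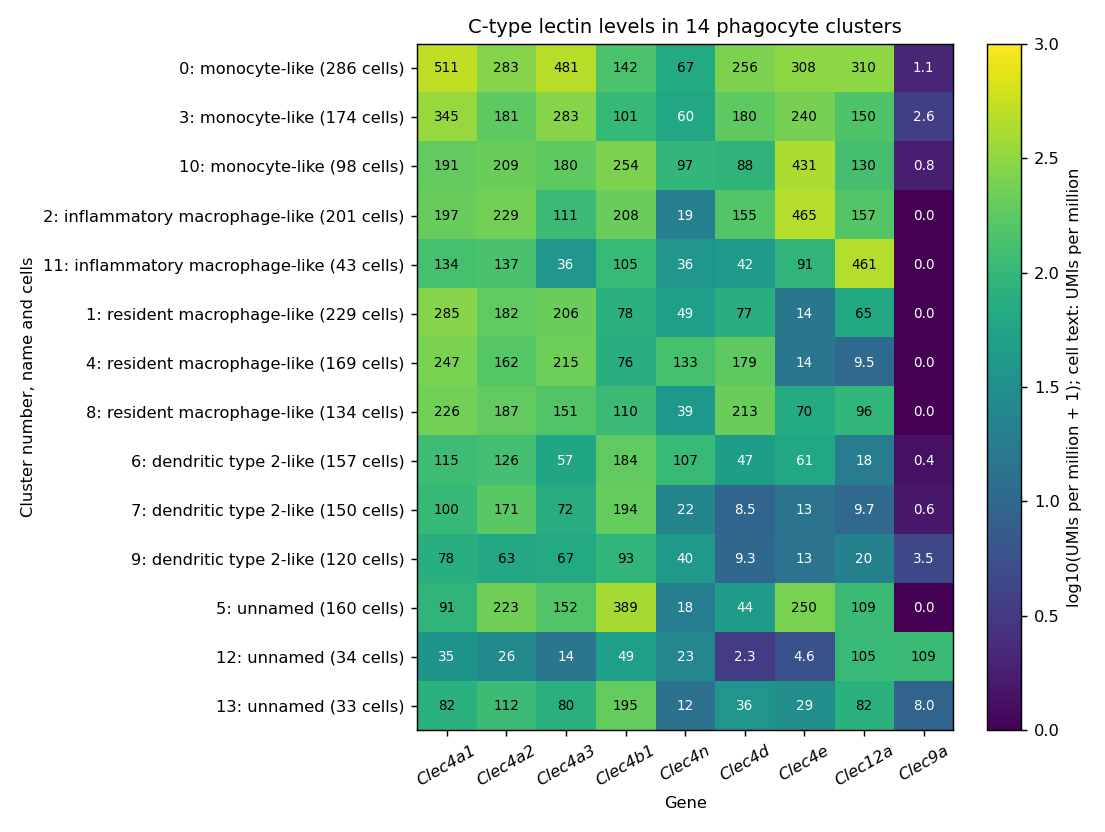
Level of each of the 9 lectins (columns) in the 14 phagocyte clusters of 30 cells or more (rows), as CPM printed in each field and as log10(CPM + 1) by colour. Clec4a1 and Clec4a3 are highest in monocyte-like cluster 0, Clec4e in cluster 2, Clec12a in cluster 11, Clec4b1 in the unnamed cluster 5 and Clec9a in the unnamed cluster 12.

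Among the DCIR-related genes, Clec4a1 and Clec4a3 were highest in the monocyte-like group as a whole, whereas Clec4a2 was spread more evenly. Clec4a1 had 399 CPM in library 1 and 309 CPM in library 2 in monocyte-like cells. In resident macrophage-like cells the same gene had 260.5 and 237.5 CPM, and in inflammatory macrophage-like cells 168 and 245 CPM. Its order therefore placed monocyte-like cells first, while the 2 macrophage groups overlapped between libraries. By cluster this did not hold for monocyte-like cluster 10, which had 191 CPM. Resident clusters 1, 4 and 8 had more, at 285, 247 and 226 CPM. In conventional dendritic type 2-like cells Clec4a1 had 100.1 CPM in library 1 and 101 CPM in library 2, below both macrophage groups in either library.

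Clec4a3 followed the same order at the top but separated the macrophages. It had 371 and 217 CPM in monocyte-like cells and 201 and 173 CPM in resident macrophage-like cells of library 1 and library 2. Inflammatory macrophage-like cells had 104 and 93.6 CPM, and dendritic type 2-like cells 66.0 and 59.6 CPM. None of these groups overlapped its neighbour in the order. Within the inflammatory group, Clec4a3 was at 111 CPM in cluster 2 and 35.9 CPM in cluster 11. Monocyte-like cluster 10 had 180 CPM, below resident clusters 1 and 4 at 206 and 215 CPM and above resident cluster 8 at 151 CPM.

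Clec4a2 varied least between the groups. Its level was 226 and 201 CPM in monocyte-like cells, 210.0 and 236 CPM in inflammatory and 181 and 166 CPM in resident macrophage-like cells, again for library 1 and library 2. Dendritic type 2-like cells had 132 and 93.9 CPM, the lowest of these groups. The first 2 groups and cluster 5, at 221 and 233 CPM, could not be told apart by their libraries. By cluster, dendritic type 2-like cluster 7 had 171 CPM (interval 152 to 192), beside 182, 162 and 187 CPM in resident clusters 1, 4 and 8. Dendritic type 2-like clusters 6 and 9 had 126 and 62.8 CPM. In the 21 mature dendritic-like cells, Clec4a2 was at 3.40 CPM, from 1 UMI, and Clec4a1 at 44.2 CPM.

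Clec4b1 had a different order. It was highest in the Fn1-high cluster 5, with 393 CPM in library 1 and 365 CPM in library 2. Inflammatory macrophage-like cells had 208 and 159 CPM, and dendritic type 2-like cells 162 and 159 CPM, so that these groups met between libraries. Monocyte-like cells had 139 and 134 CPM and resident macrophage-like cells 92.3 and 65.3 CPM. Among the 8 lectins with 100 or more UMIs, Clec4b1 alone had a higher pooled level in dendritic type 2-like than in monocyte-like cells, 161 against 138 CPM. By cluster this order did not hold. Monocyte-like cluster 10 had 254 CPM and clusters 0 and 3 had 142 and 101 CPM, while dendritic type 2-like clusters 6, 7 and 9 had 184, 194 and 93.0 CPM. Within the inflammatory group, Clec4b1 was at 208 CPM in cluster 2 and 105 CPM in cluster 11.

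Some of these genes have similar 3′ ends. Over the last 500 bases of their transcripts, Clec4b1 and Clec4a2 were 96.3% identical over 436 aligned bases, and Clec4a2 and Clec4a4 were 96.9% identical over 224. Clec4a3 and Clec4a4 were 89.1% identical over 128 bases. Clec4n was 88.8% identical to Clec4b1 over 116 bases, and Clec9a was 100% identical to a transcript of Clec1b with a retained intron over 92 bases. The ends were searched against whole transcripts, and those of Clec4a3 and Clec4a2 matched Clec4a1 less closely, at 82.0% over 128 bases and 78.8% over 312. The ends of Clec4a1, Clec4d, Clec4e and Clec12a themselves matched no other Clec gene over 91 bases or more, the length of the cDNA read. It is not known how the counting divided such reads, and levels of the genes with such matches are uncertain to that extent, most of all Clec4a2 and Clec4b1. Clec4a4 itself had 7 UMIs and Clec4b2 had 4 UMIs in phagocytes.

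Clec4e differed most between the macrophage groups. It had 398 CPM in library 1 and 468 CPM in library 2 in inflammatory macrophage-like cells, against 24.6 and 40.7 CPM in resident macrophage-like cells. Monocyte-like cells had 239.9 and 456 CPM and the Fn1-high cluster 5 had 249.8 and 253 CPM. Dendritic type 2-like cells had 22.0 and 59.6 CPM, which met the range of the resident macrophages. The 3 high groups met in the ranges of neighbouring groups, and all of them lay above both low groups in either library. Within the inflammatory group, however, Clec4e was at 465 CPM in cluster 2 and at 91.5 CPM (interval 60.8 to 132) in cluster 11, which met resident cluster 8 at 69.7 CPM (55.5 to 86.4). Cluster 11 was nevertheless the one with the higher sum of inflammatory markers. After each cell was thinned to 2000 UMIs, 31.2% of inflammatory macrophage-like cells (interval 25.3 to 37.6%) and 30.3% of monocyte-like cells (26.4 to 34.4%) had a Clec4e UMI. The share was 4.02% (2.51 to 6.08%) in resident macrophage-like and 0.257% (0.0311 to 0.924%) in fibroblast-like cells, whose median depths before thinning were 8754 and 13108 UMIs.

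Clec4d, the neighbour of Clec4e, did not share that difference between the macrophage groups as a whole. It had 110.3 CPM in library 1 and 268 CPM in library 2 in resident macrophage-like cells, and 89.3 and 276 CPM in inflammatory macrophage-like cells. Monocyte-like cells had 183 and 219 CPM, so that these 3 groups met and no order among them held in both libraries. Dendritic type 2-like cells had 23.0 and 31.7 CPM and cluster 5 had 46.8 and 27.5 CPM, all below the 3 groups just named. By cluster this did not hold for inflammatory cluster 11, which had 42.5 CPM of Clec4d (interval 22.6 to 72.6). Pooled over libraries, cluster 5 had 43.8 CPM and dendritic type 2-like cluster 6 had 47.2 CPM. Inflammatory cluster 2 had 155 CPM, so that Clec4d, like Clec4e, was lower in cluster 11 than in cluster 2. Within each of the 2 macrophage groups, library 2 had over 2 times the Clec4d level of library 1. Library and age cannot be told apart here.

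**Figure D2:**
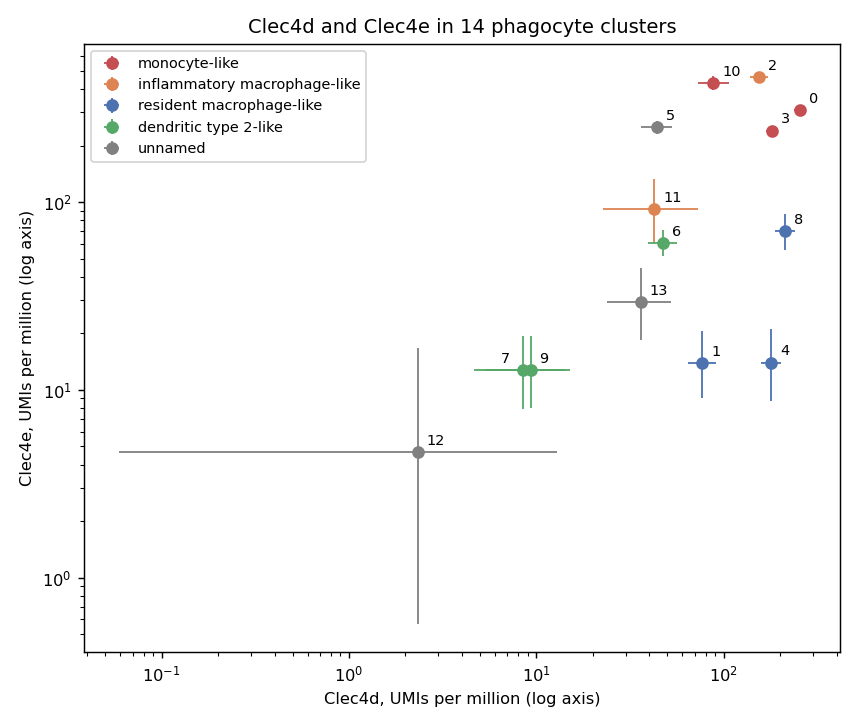
Clec4d (horizontal) against Clec4e (vertical), in CPM on log axes, for the 14 phagocyte clusters of 30 cells or more, numbered and coloured by group, with exact 95% Poisson intervals as bars. Resident macrophage-like clusters 1 and 4 have 76.8 and 179 CPM of Clec4d at 13.9 and 13.97 CPM of Clec4e, and resident cluster 8 has 213 CPM of Clec4d at 69.7 CPM of Clec4e, while monocyte-like cluster 10 has 88.2 CPM of Clec4d at 431 CPM of Clec4e.

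Over the 14 clusters of 30 cells or more, Clec4d and Clec4e had a Pearson r of 0.61 on log2(CPM + 10), whereas Clec4d had 0.90 with Clec4a1 and 0.81 with Clec4a3. These are descriptions over clusters that share libraries. Within monocyte-like cells thinned to 2000 UMIs, Clec4e was found in 46.2% of the 132 cells with a Clec4d UMI (interval 37.5 to 55.1%) and in 25% of the 400 cells without (20.8 to 29.5%). In inflammatory macrophage-like cells the shares were 50% of 34 cells and 28% of 200 cells, with intervals of 32.4 to 67.6% and 21.9 to 34.8% that overlap. In resident macrophage-like cells they were 7.22% of 97 cells and 3.29% of 425 cells, and their intervals overlap as well. These shares pool the libraries and the clusters of each group, and the intervals cover counting error only. In monocyte-like cells, library 2 had more Clec4d than library 1, at 219 against 183 CPM. It also had more Clec4e, at 456 against 239.9 CPM. The part of library and cluster in these shares was not tested.

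Clec4n had an order unlike that of Clec4e. It had 58.4 CPM in library 1 and 129.6 CPM in library 2 in resident macrophage-like cells, 54.2 and 112 CPM in monocyte-like cells and 55.1 and 85.3 CPM in dendritic type 2-like cells. These groups met in every neighbouring pair, and in each of them library 2 was the higher one. Inflammatory macrophage-like cells had 20.02 and 25.7 CPM and cluster 5 had 19.98 and 10.01 CPM, both under the other groups. Within the dendritic type 2-like cells, cluster 6 had 107 CPM of Clec4n and clusters 7 and 9 had 22.4 and 39.5 CPM. Among resident clusters, Clec4n was at 133 CPM in cluster 4, which was led by Ccl8 and Cxcl13 beside Cd209f, and at 48.9 CPM in cluster 1.

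Clec12a was highest in the monocyte-like and inflammatory macrophage-like cells. Monocyte-like cells had 224 CPM in library 1 and 126 CPM in library 2, and inflammatory macrophage-like cells 221 and 127 CPM, so that the 2 groups overlapped. Cluster 5 had 108 and 115 CPM, resident macrophage-like cells 58.4 and 40.7 CPM, and dendritic type 2-like cells 11.6 and 25.8 CPM. The small cluster 11 of the inflammatory group, with Ccl3 and Ccl4 in the lead, had 461 CPM (interval 388 to 543) from 43 cells, against 157 CPM in cluster 2. Resident cluster 4 stood apart at 9.52 CPM, whereas resident clusters 1 and 8 had 65.1 and 95.7 CPM. Thinned to 2000 UMIs, 35.0% of monocyte-like cells had a Clec12a UMI and 1.44% of dendritic type 2-like cells had one, beside 0.128% of fibroblast-like cells. Their median depths were 12424, 14055 and 13108 UMIs.

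**Figure D3:**
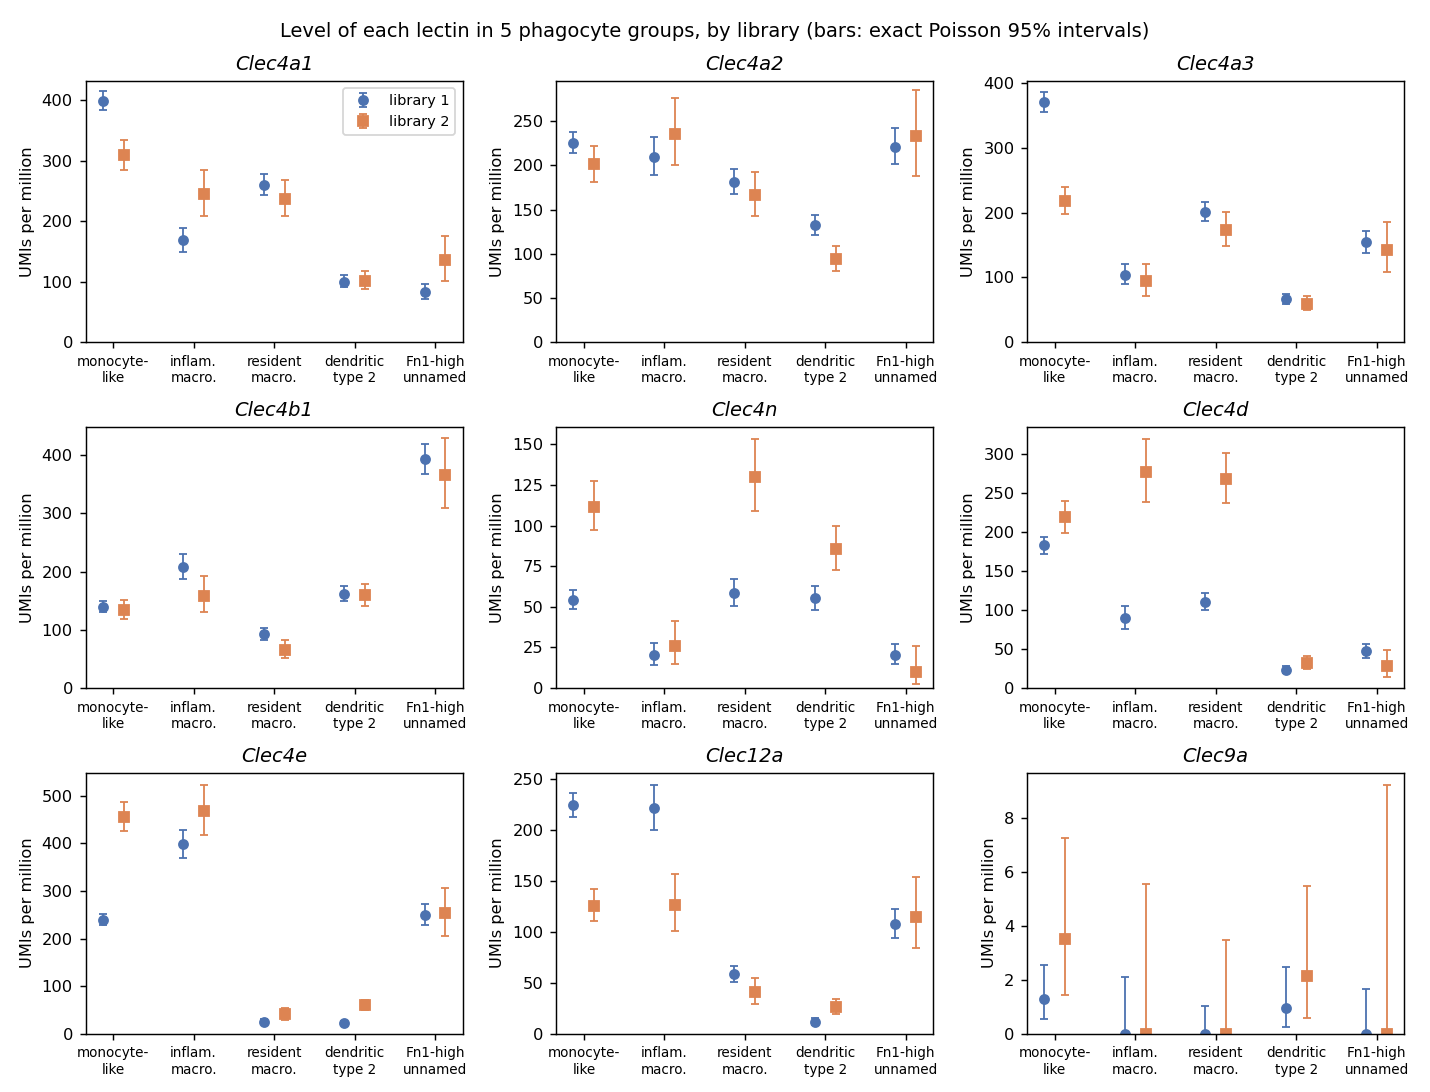
Level of each lectin in CPM (vertical, from 0, a scale of its own in each panel) in 5 phagocyte groups, with library 1 as circles, library 2 as squares and exact 95% Poisson intervals as bars. Clec4e is at 398 and 468 CPM in inflammatory and at 24.6 and 40.7 CPM in resident macrophage-like cells, while Clec4d meets between those groups.

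Most of the Clec9a UMIs were in 1 small cluster. Of its 78 UMIs in phagocytes, 47 were in the 34 cells of cluster 12, at 109 CPM (interval 80.3 to 145). Library 1 had 57.2 CPM there and library 2 had 139 CPM, with 12 and 22 cells. Monocyte-like cells had 1.83 CPM and dendritic type 2-like cells 1.33 CPM, and no UMI was found in 545 resident or 244 inflammatory macrophage-like cells, where 3 counts, the floor used for a sum of 0, would be 0.652 and 1.24 CPM. Cluster 12 held genes of 2 cell types and was left unnamed. It had raised levels of 8 of 11 markers of type 1 conventional dendritic cells, among them Xcr1 at 97.6 CPM, Irf8 at 951 CPM and Wdfy4 at 335 CPM, and of 5 of 6 B cell markers, among them Cd79a at 209 CPM.

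Clec9a was not seen in the cells of cluster 12 that had the B cell genes Cd79a, Igkc or Ms4a1. Clec9a was detected in 16 of the 34 cells, and Cd79a, Igkc or Ms4a1 in none of those 16, which allows a share of up to 20.6% for each by the exact binomial interval. The chemokine receptor gene Xcr1 was detected in 8 of the 16 and Irf8 in 16 of them. Among the other 18 cells, Cd79a was detected in 6 and Igkc in 5, and Irf8 in 14, Wdfy4 in 12, Naaa in 11 and Xcr1 in 5, so that some of these cells held Irf8 together with Cd79a. The 16 cells with Clec9a had a median of 19682 UMIs and the other 18 had 6674, and the part of depth in these counts was not tested. Clec12a was present on both sides, in 13 of 16 and in 9 of 18 cells. Apart from Clec12a and Clec9a, the lectins were low in this cluster, with 34.9 CPM of Clec4a1, 48.8 CPM of Clec4b1 and only 1 UMI of Clec4d.

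The first comparison between groups asked which lectins set monocyte-like cells apart from macrophage-like cells, the 789 resident and inflammatory cells together. Clec4a3 alone was 2-fold or more higher in monocyte-like cells, with a log2 ratio of 1.04 (interval 0.94 to 1.14), from 333 against 163 CPM. The count was 1 of 8 lectins tested, or 12.5%, where 10.9% of all 10768 genes passed in this direction. None was 2-fold or more lower, where 7.12% of all genes were. The 8 log2 ratios were all above 0, from 0.16 for Clec4b1 to 1.04, with a median of 0.55 beside 0.22 for all genes tested. Clec4a3 gave 1.13 in library 1 and 0.61 in library 2, so that it passed 2-fold in library 1 only, while Clec4e gave 0.70 and 1.15. Clec4d, at 0.41 pooled, gave 0.82 in library 1 and -0.31 in library 2. Clec12a at 0.96 (0.84 to 1.09) and Clec4e at 0.85 (0.75 to 0.95) came closest to the threshold. Against resident macrophage-like cells alone, a choice made after the data were seen, Clec4e reached 3.37 and Clec12a 1.88, and Clec4a3 was at 0.78. Scaled by median-ratio size factors, which remove most of the shift of all genes, Clec4b1 and Clec4a2 were at -0.05 and -0.01.

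The second comparison set dendritic-like cells, 448 of type 2-like and mature cells together, against macrophage-like cells. Clec4d, Clec12a, Clec4e, Clec4a3 and Clec4a1 were 2-fold or more lower in dendritic-like cells. These were 5 of 8 lectins tested, or 62.5%, where 18% of all 10513 genes passed in this direction. The log2 ratio was -2.53 for Clec4d (interval -2.79 to -2.29), -2.49 for Clec12a (-2.79 to -2.21) and -2.32 for Clec4e (-2.54 to -2.10). Clec4a3 at -1.37 and Clec4a1 at -1.25 changed less. Clec4a2 at -0.74, Clec4n at 0.12 and Clec4b1 at 0.33 stayed within 2-fold, and no lectin was 2-fold or more higher, where 9.04% of all genes were. The Clec4e value rested on cluster 2: it was 0.010 without the cells of that cluster and 0.20 against resident macrophage-like cells alone. Clec4d and Clec12a were at -2.55 and -1.57 against resident cells alone. Without cluster 6, an alternative also chosen after the data were seen, Clec4d was at -4.005, Clec4e at -3.72 and Clec4n at -0.98.

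A further comparison, added after the data were seen, took inflammatory over resident macrophage-like cells. Clec4e was 3.88 higher on the log2 scale (interval 3.62 to 4.16), from 417 against 28.3 CPM, and Clec12a was 1.85 higher (1.62 to 2.07) and Clec4b1 1.18 higher (0.98 to 1.37). These 3 of 8 lectins, or 37.5%, compare with 6.24% of all 9317 genes. Clec4n was lower, at -1.79 (-2.24 to -1.37), 1 of 8 where 12.1% of all genes were lower. Clec4d, at -0.06 (-0.25 to 0.13), was within 2-fold of equal levels. In library 1 alone and in library 2 alone, Clec4e gave 4.02 and 3.52. Without cluster 2, the 43 cells of cluster 11 gave 1.69 for Clec4e, 3.08 for Clec12a, 0.28 for Clec4b1 and -1.79 for Clec4d.

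**Figure D4:**
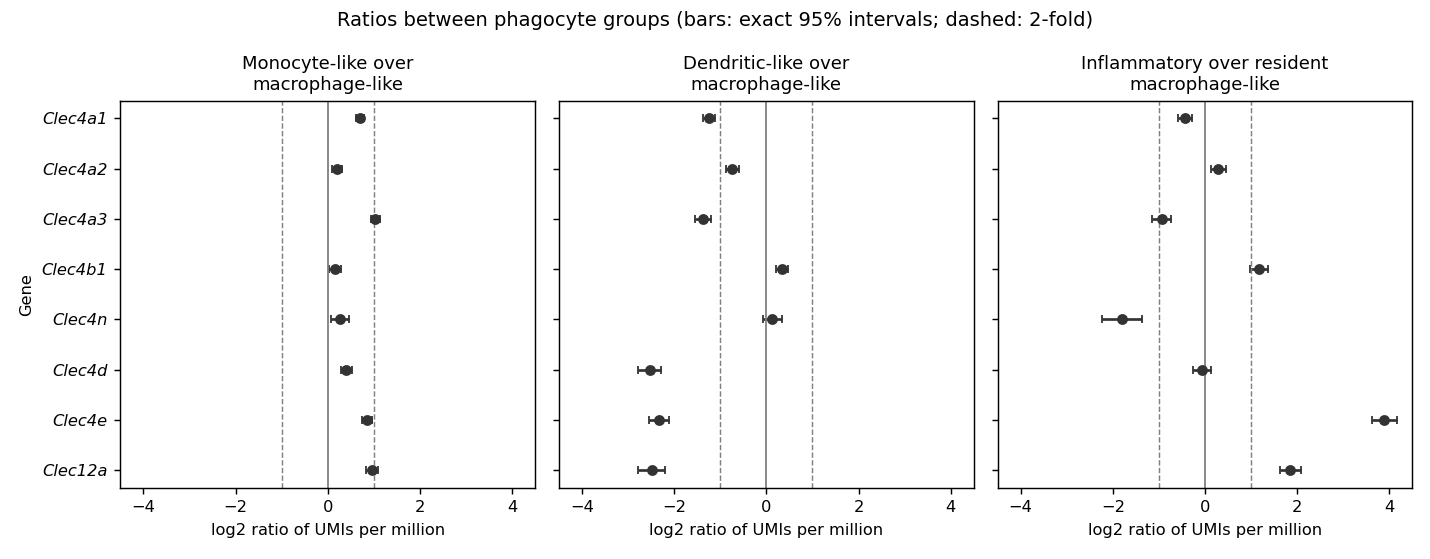
Log2 ratios of CPM (horizontal) for the 8 lectins tested in each of 3 comparisons (panels), with exact 95% intervals for counting error as bars, a solid line at 0 and dashed lines at 2-fold. Clec4d, Clec4e and Clec12a lie between -2.53 and -2.32 in dendritic-like over macrophage-like cells, and Clec4e reaches 3.88 in inflammatory over resident macrophage-like cells.

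The signalling genes of these receptors were found in all of these groups, but Card9 only at a low level. Card9 had 29, 28 and 29 UMIs (3.54, 3.99 and 4.61 CPM) in monocyte-like, macrophage-like and dendritic-like cells. Fcer1g had 2345 CPM in monocyte-like, 1848 CPM in macrophage-like and 1484 CPM in dendritic-like cells. Tyrobp, the adaptor DAP12 that serves other activating receptors, had 1447, 1060 and 1344 CPM in the same order. Syk had 303, 235 and 143 CPM. Of 13 signalling genes, 1 (7.69%) was 2-fold or more higher in monocyte-like than in macrophage-like cells, where 10.9% of all genes were. It was Ptpn6, with a log2 ratio of 1.51 (interval 1.32 to 1.70). In dendritic-like over macrophage-like cells 1 of 13 was higher, Malt1, at 2.27 (2.17 to 2.36), where 9.04% of all genes were. Malt1 was also the only one past 2-fold in inflammatory over resident macrophage-like cells, at 2.59, where 6.24% of all genes were higher. These counts were near the shares over all genes. No signalling gene was 2-fold or more lower in any of the 3 comparisons, where 7.12%, 18% and 12.1% of all genes were. Lyn and Prkcd, kinases of this pathway, had 297 and 261 CPM in monocyte-like, 197 and 151 CPM in macrophage-like and 199 and 183 CPM in dendritic-like cells.

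Other C-type lectins are given for comparison, and no test of a difference between the lists was run. Mrc1, the mannose receptor, had 1838 CPM in macrophage-like, 711 CPM in monocyte-like and 518 CPM in dendritic-like cells, and 2337 CPM in resident macrophage-like cells. Clec10a, a galactose-type lectin, had 794, 349 and 133 CPM in the same 3 groups. Of 7 such lectins tested, 4 were 2-fold or more lower in monocyte-like than in macrophage-like cells, where 7.12% of all genes were. These were Mrc1, Clec10a, Cd302 and Clec5a. Clec4g was higher, from 23 UMIs in macrophage-like and 63 in monocyte-like cells, where 10.9% of all genes were higher. Of 9 tested in dendritic-like over macrophage-like cells, Mrc1, Clec10a and Clec5a were lower, where 18% of all genes were, and Clec4g, Clec1a and Ly75 were higher, where 9.04% were. Clec4g, known as LSECtin, had 38.5 CPM in dendritic-like and 3.28 CPM in macrophage-like cells. Clec2d had 213, 144 and 128 CPM in macrophage-like, monocyte-like and dendritic-like cells and stayed within 2-fold.

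Genes with the pattern most like each lectin over the 14 clusters are given as a description, among 7341 genes with 200 or more UMIs in phagocytes. Clec4a2 was most like Itgam, which encodes the integrin CD11b, with r of 0.94, followed by Igsf6 (0.93). Clec4e was most like Ccl5 (0.93), Sirpb1b and Syk (both 0.88), and Clec4b1 most like Csf2ra (0.89), which encodes the receptor chain for GM-CSF, with Chn2 and Qpct next. Clec12a was most like Hcls1 (0.88), Mmp14 and Actr3. Clec4a1 was most like Dram2 (0.96), Flcn and BC005537, Clec4a3 most like Anxa4 (0.93), Plxnb2 and Tango2, and Clec4d most like Ccdc22 (0.94), Fam76a and Xpot. Clec4n had no close match, with Syap1 (0.75), Smg8 and Copb1 at the top.

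Several lectins were often found in 1 cell. After thinning to 2000 UMIs, 74.8% of 532 monocyte-like cells held 2 or more of the 9 lectins and 26.1% held 4 or more. The shares were 54.7% and 9.40% of 234 inflammatory macrophage-like cells, 50% and 6.32% of 522 resident macrophage-like cells and 25.9% and 1.44% of 417 dendritic type 2-like cells. In 779 fibroblast-like cells 0.513% held 2 or more. Summed over the 9 genes, the level was 1836 CPM in library 1 and 1777 CPM in library 2 in monocyte-like cells, 1419 and 1629.5 CPM in inflammatory macrophage-like, 987 and 1121 CPM in resident macrophage-like and 573 and 618 CPM in dendritic type 2-like cells. The sums of these 4 groups kept the same order in both libraries, with no overlap. By single cluster the order did not always hold, since the sum in inflammatory cluster 11 was not above that in resident cluster 8. Cluster 3, a monocyte-like cluster whose median of 21739 UMIs per cell was the highest of the named clusters, had 345 CPM of Clec4a1 and 239.8 CPM of Clec4e, both lower than cluster 0 with 511 and 308 CPM.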

How the data were processed

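The authors made the deposited counts with Cell Ranger 4.0.0 on the mm10 build, per the labels, from 3′ libraries with v3.1 chemistry. The deposited file is a single table of UMI counts, not normalized, that holds the 2 libraries. How cells were called before deposit is not known.

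The filter required 500 genes and 1000 UMIs per cell and allowed 10% of UMIs from mitochondrial (mt-) genes. The analysis used scanpy 1.11.5 under Python 3.11.15, with leidenalg 0.10.2. Scrublet called 6 cells (0.158%), so doublets count as untreated. Cells were clustered (2000 variable genes, 30 principal components, 15 neighbours, Leiden resolution 1, seed 1), and phagocytes were clustered once more. The 9 lectins, the other C-type lectins and the signalling genes were left out of both steps.

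A cluster took the name of the marker list, of 21, with the highest mean log2 excess over the median cluster (pseudocount 10 CPM), if at least 3 markers reached 20 CPM and 2 times the median cluster, the list led the next by 0.4 or more, and no other list had both 2 or more markers and more than its own among the 10 leading genes. This rule was set after the clusters were seen, and the names end in like for this reason. Members and lists were chosen with earlier results of these data known. Cd209a, Mgl2 and Cd207 were markers and are not reported as results.

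UMIs were summed per group and divided by the group total (CPM). A gene was tested with at least 20 UMIs over both groups and counted at 2-fold or more. A sum of 0 was set to a floor of 3 counts. Intervals are exact Poisson, Clopper-Pearson or conditional binomial intervals at 95%, and the ratio step was tested on simulated data. No p-value was computed, since each age has 1 library. Shares of cells were taken after thinning to 2000 UMIs, which left out 26 of 558 monocyte-like, 23 of 545 resident, 10 of 244 inflammatory macrophage-like, 10 of 427 dendritic type 2-like and 47 of 826 fibroblast-like cells. Of the other lectins and signalling genes, values are given for at most 6 of each list with the most UMIs in phagocytes, and for those past 2-fold. Card9 is given as well because its level was low. The likeness across clusters takes the 3 genes with the highest Pearson r per lectin with 100 or more UMIs in phagocytes, of which 1 is not reported here. Alternatives changed the filter, resolution, variable genes, doublets, library, weighting, grouping, minimum of UMIs, scaling and thinning. Of the gene identifiers, 32158 were found in GENCODE vM21.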

Additional observations from a re-analysis of the deposited data

How the results depend on the processing

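The 5 lectins lower in dendritic-like than in macrophage-like cells numbered 4 to 6 under the alternatives, and 8 or 9 lectins were higher in phagocytes than in other skin cells. Of the log2 ratios of single lectins, 2 turned sign after having passed 2-fold, both of Clec4e in dendritic-like over macrophage-like cells: 0.010 without cluster 2 and 0.20 against resident macrophage-like cells alone. Another 214 lay outside the interval of the main value, and 318 lay within it. Ratios within 2-fold also turned sign. Clec4d in inflammatory over resident macrophage-like cells, for example, kept its sign in 6 of 15 alternatives, with values from -1.79 to 0.59. Clec4a3 in monocyte-like over macrophage-like cells kept 2-fold in 8 of 16 alternatives, with values from 0.61 in library 2 to 1.43 at resolution 0.5. The 1 lectin higher in monocyte-like than in macrophage-like cells became 0 with 3000 variable genes, with median-ratio size factors and with the per-cell gate, 2 with at most 20% mt- UMIs, with no minimum of UMIs, without cluster 2 and against resident cells alone, and 3 at resolution 0.5, with the mean over cells and without cluster 3. The count higher in dendritic-like cells was 1 at resolution 0.5, with the per-cell gate and with no minimum of UMIs. The 1 lectin higher in resident than in inflammatory macrophage-like cells became 2 with at most 5% mt- UMIs, at resolution 1.5 and with 3000 variable genes, 3 without cluster 2, and 0 with the per-cell gate. Leaving out clusters 2, 3 or 6, taking resident cells alone and adding unnamed clusters to the phagocytes were chosen after seeing the data, and the cause of these shifts was not tested. Without cluster 6, Clec4n in dendritic-like over macrophage-like cells went from 0.12 to -0.98, and the count of 5 lower lectins was the same. With at most 5% mt- UMIs no cluster was named monocyte-like, so that comparison gave no value there. The Clec9a ratio of cluster 12, or the cluster holding most of its cells, over dendritic-like cells was 6.10 and ranged from 1.23 at resolution 0.5 to 6.26 at resolution 1.5. No paired analysis was possible because each age has 1 library, no column carries a replicate number and no test was run. Shares of cells moved with the depth: without thinning or at 1000 UMIs, 61 of 72 lay outside the interval of the value at 2000 UMIs. Depth limits Clec9a most, with 79 UMIs in all.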
